A study of Mus musculus with 6 samples.

Results

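The resting landscape of open chromatin was described for the leptin receptor lineage of bone marrow, whose cells are labelled mesenchymal stem and progenitor cells (MSPCs), in saline-treated mice. The description rests on 57349 regions that carried a peak in all 3 libraries of the PBS group, out of 99242 regions obtained when the peaks of those libraries on chromosomes 1 to 19 and X were merged wherever they overlapped by 1 bp or more. With all libraries of the series, doxorubicin-treated mice included, 113038 merged regions were counted, and nothing else was taken from the treated libraries. ATAC-seq uses the transposase Tn5, which inserts adapters into DNA that is not wrapped in nucleosomes, and a peak marks accessible DNA. Female mice of genotype Lepr-Cre;LSL-tdTomato+/-, 8 to 10 weeks old, had received 4 weekly intravenous injections (interval 1 week) of phosphate-buffered saline (PBS) and were killed 8 weeks later. Marrow was digested with enzymes at 37 °C for 25 min and tdTomato+ cells were sorted into 50% serum. The reporter marks every descendant of a cell in which the Lepr promoter once drove Cre, so the sort takes a lineage and not a single cell state. The titles call the libraries biological replicates, and how many mice went into each is not stated in those titles or protocols. The spread between libraries is therefore a spread between samples that may be partly technical.

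Leptin receptor lineage stromal cells surround the marrow sinusoids and are the main local source of CXCL12, the chemokine that retains blood stem cells, and of stem cell factor, the product of Kitl. Their identity depends on transcription factors that include Foxc1 and Ebf3. In most cells, open chromatin falls into promoters, which are open in many cell types, and distal elements such as enhancers, which differ more between cell types.

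PBS replicate 3 stood apart from the others. It had 65462 peaks on the chromosomes used, against 88348 and 89264 for PBS replicates 1 and 2, and 94.7% of its peaks lay in common regions, against 68.1% and 65.5%. The requirement of 3 libraries was therefore set mainly by this library: 18492 regions had a peak in replicates 1 and 2 and none in replicate 3, while 717 and 1103 lacked a peak in replicate 2 or replicate 1 alone, and 21581 had a peak in 1 library. The regions of replicates 1 and 2 alone, just outside the rule, had median folds of 7.49 and 7.16, where the common regions had 23.8 and 23.4. Fold here is the peak caller's enrichment of a region's highest peak over background. It is not scaled between libraries, so regions were ordered by their fold percentile among the common regions of each library, averaged over the 3 libraries. Without replicate 3, 75945 regions were common to the other two.

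All 5 genes that mark these cells had a common region at their start, meaning that its summit lay within 1 kb of an annotated start in at least 2 libraries. The 250 bases before those starts are shown because the regions described next are centred on or near them. They are RefSeq sequence of build GRCm38.p6, 5′ to 3′ on the gene's own strand. Capitals mark matches, on either strand, to the 10 short motifs spelled out with the promoter results. For Lepr the start nearer to the summits is shown.
Lepr, chr4:101717656-101717905, plus strand: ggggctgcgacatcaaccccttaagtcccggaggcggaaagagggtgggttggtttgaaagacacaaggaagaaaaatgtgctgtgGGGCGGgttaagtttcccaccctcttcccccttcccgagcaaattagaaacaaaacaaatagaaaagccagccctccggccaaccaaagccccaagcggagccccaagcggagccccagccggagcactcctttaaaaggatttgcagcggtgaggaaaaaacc
Cxcl12, chr6:117168285-117168534, plus strand: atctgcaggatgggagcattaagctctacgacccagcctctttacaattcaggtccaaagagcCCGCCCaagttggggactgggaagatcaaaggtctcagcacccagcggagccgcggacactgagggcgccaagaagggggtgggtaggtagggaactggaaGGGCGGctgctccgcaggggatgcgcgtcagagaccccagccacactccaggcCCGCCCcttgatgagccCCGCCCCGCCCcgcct
Kitl, chr10:100015571-100015820, plus strand: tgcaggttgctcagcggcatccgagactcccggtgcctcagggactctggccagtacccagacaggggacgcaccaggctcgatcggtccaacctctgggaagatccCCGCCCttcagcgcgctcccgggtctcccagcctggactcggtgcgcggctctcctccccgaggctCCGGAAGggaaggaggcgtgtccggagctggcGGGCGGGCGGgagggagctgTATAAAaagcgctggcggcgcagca
Ebf3, chr7:137314446-137314695, minus strand: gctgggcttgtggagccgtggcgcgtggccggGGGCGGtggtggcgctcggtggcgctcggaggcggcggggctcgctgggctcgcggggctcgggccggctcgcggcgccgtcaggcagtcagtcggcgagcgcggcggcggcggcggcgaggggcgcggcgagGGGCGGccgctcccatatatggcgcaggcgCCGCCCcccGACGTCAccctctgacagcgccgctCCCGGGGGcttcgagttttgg
Foxc1, chr13:31806396-31806645, plus strand: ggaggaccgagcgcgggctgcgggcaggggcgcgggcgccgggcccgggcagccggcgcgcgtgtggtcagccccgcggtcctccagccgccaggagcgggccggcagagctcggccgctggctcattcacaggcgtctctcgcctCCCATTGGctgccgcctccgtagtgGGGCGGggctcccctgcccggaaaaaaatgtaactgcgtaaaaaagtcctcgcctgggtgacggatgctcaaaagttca
The Cxcl12 window held 5 matches, all to the GC box bound by SP and KLF factors, and had a GC content of 64.4%. The Kitl window held 5 matches, which included a TATA box at position -25, counted from the start. The Ebf3 window was the richest in GC at 80%, and its 5 matches included an EBF site at position -21. A match says only that these letters occur there.

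The start regions of the markers differed in strength. Foxc1, a forkhead factor needed to keep this niche, had the strongest, with folds of 144.0, 150.7 and 115.6 in PBS replicates 1, 2 and 3. Kitl had folds of 123.3, 142.6 and 95.01 at its start. Ebf3 had 130.4, 117.3 and 76.4, and Cxcl12 had 104.8, 96.8 and 64.8. Lepr, which encodes the leptin receptor, had the weakest, with 47.1, 48.2 and 27.0. Lepr was the lowest of the 5 in every library and Foxc1 the highest, while Kitl and Ebf3 changed places between replicates 1 and 2. The corresponding fold percentiles ran from 71.8 for Lepr to 97.4 for Foxc1, beside a median of 85.98 over all genes with a start region.

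Around the 5 markers most regions lay away from the start. The same held for common regions in general, of which 21.4% were at a gene start. Each common region was assigned to the protein-coding gene whose span lay nearest to its summit, within 100 kb. Ebf3 had 45 regions, 41 of them inside the gene. Kitl had 26, with 18 inside the gene, and Cxcl12 had 25, of which only 4 lay inside its span of 12834 bp. Lepr and Foxc1 had 12 each. Lepr, the gene that names the lineage, was not most open at its own start: its strongest region was chr4:101707586-101708679, 9.06 kb outside the span and upstream, with folds of 87.2, 94.9 and 57.8. The start region of Lepr was lower than this in all 3 libraries.

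The strongest region assigned to Cxcl12 was also not at its start. It lay at chr6:117278999-117280076, 98.1 kb from the gene, with folds of 134.4, 125.9 and 86.7, again above the start region in every library. Assignment by distance does not show which gene such a region acts on. A second Cxcl12 region was exceptional in width: chr6:117178887-117186110 spanned the end of the gene and ranked 25 among all common regions by width, with 6281, 7140 and 5173 bp. Its fold was moderate, at 32.2, 43.4 and 23.1. Upstream of Foxc1, the regions with summits 2.83, 5.30 and 9.06 kb before the start had fold percentiles of 87.2, 82.9 and 67.1.

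**Figure D1:**
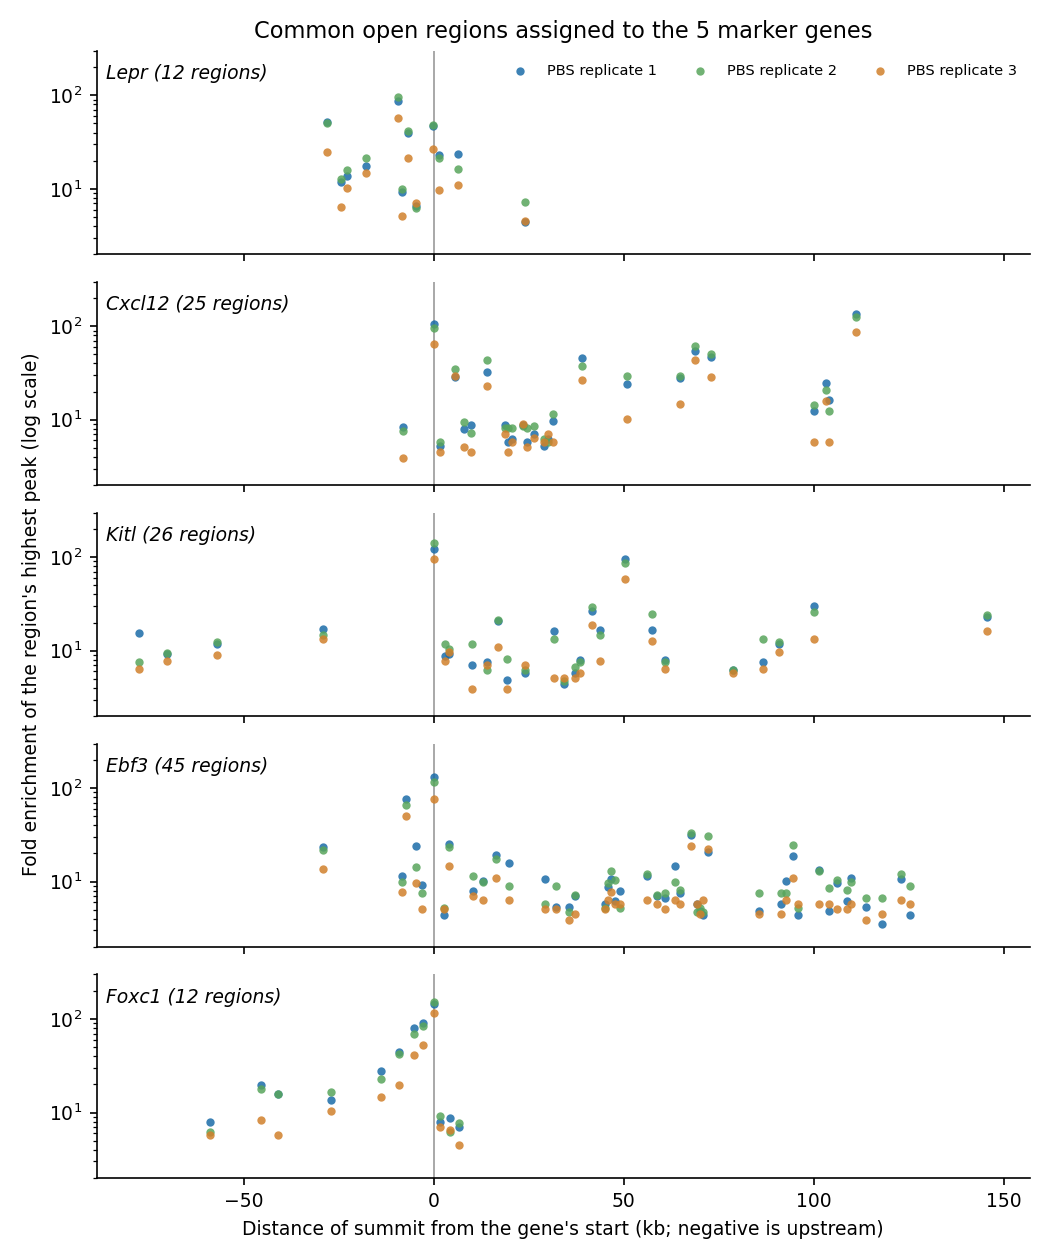
Fold enrichment (log axis) of every common region assigned to Lepr, Cxcl12, Kitl, Ebf3 and Foxc1, plotted against the distance of its summit from the gene's own nearest start in kb, with a point for each PBS library. Regions of Lepr and Foxc1 lie mostly upstream and those of Cxcl12 mostly downstream, and PBS replicate 3 has lower folds in most regions.

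Marker genes of other cells gave a check on what had been sorted. Over all 21631 protein-coding genes, 12493 (57.8%) had a common region at a start, and 58.1% of the 17274 genes with a start in the promoter table did. The lists set against this share were chosen with earlier results of these data known, so their counts are descriptions. Among 30 MSPC identity and niche genes 27 had an open start. The exceptions were Il34, Bst1 and Thy1, and Il34, a ligand of the CSF1 receptor, had 14 common regions inside the gene all the same. None of these exceptions has a start in the promoter table, so either end of the span was counted for them. All 21 members with a start in that table had an open one, beside 58.1% of all such genes. The strongest starts after Foxc1 were those of Ebf1, with folds of 133.9, 161.2 and 87.3, Csf1, which encodes the macrophage growth factor, with 141.8, 134.0 and 93.1, and Kitl. Without replicate 3 the count was 26 of 30, beside 59.6% of all genes. The start regions of this list were not strong as a set: their median fold percentile was 81.5, below the 85.98 over all genes.

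Blood cell markers lay below the share over all genes. Of 20 B cell markers 2 had an open start, among them Blnk, an adaptor of B cell receptor signals, with folds of 14.5, 15.3 and 9.63. Of 27 myeloid markers 4 did, of 25 erythroid and megakaryocyte markers 6, and of 22 T and NK cell markers 5. Without replicate 3 these counts were 2, 5, 8 and 6. A pair of myeloid starts were strong. Cd68, a lysosomal protein of macrophages, had folds of 108.8, 121.2 and 83.5, and the start of a neighbour, Mpdu1, lay in the same region. Camp, the cathelicidin of neutrophils, had 104.0, 113.5 and 67.4, with no other protein-coding start in its region. Endothelial markers, which label the vessels these cells wrap around, had 11 of 30 open, and 14 without replicate 3. Among the 14 with a start in the promoter table, open starts numbered 7, beside 58.1% of all such genes. Nos3 had the highest folds with 55.5, 55.8 and 41.7, but it has no start in that table, either end of its span was counted, and its region did not cover an end. The highest with a start in the table was Egfl7 with 25.1, 27.7 and 20.5. The part that a minority of other cells plays in these regions was not tested. In control lists of other tissues 2 of 20 liver genes, 3 of 20 germ cell genes and 4 of 20 neuron genes were open, and without replicate 3 these counts were 3, 4 and 7.

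The osteoblast list lay above the share over all genes, and the adipocyte list less far above it. Of 24 osteoblast genes 20 had an open start, and the 4 without were Bglap, Phex, Sost and Mepe. Genes of mature osteoblasts and osteocytes were found on both sides: Bglap and Sost had no open start, whereas Dmp1, a matrix protein of osteocytes, had folds of 74.4, 73.9 and 53.9 and Ibsp, bone sialoprotein, 44.1, 41.0 and 24.4. The Dmp1 region counted as open by its summit within 1 kb of an annotated start, and it did not cover a start. Runx2, the factor that starts the osteoblast program, had 38 regions and start folds of 70.5, 73.0 and 51.4. Dlx5, a homeobox factor of bone, had the strongest start of the list with 118.5, 151.2 and 102.7. Of 22 adipocyte genes 15 were open. The C/EBP factors Cebpa and Cebpd led with 159.5, 175.1 and 134.8 and with 149.3, 159.3 and 105.9, and Pparg, the master factor of fat cells, had 41.8, 49.1 and 30.8. Fabp4, Plin1, Cidec, Lep, Retn, Cfd and Cd36 had no common region at their start, and these 7 are all of the list that lacked one. Other genes of the mature adipocyte did have one, among them the adipokine Adipoq with 71.4, 74.4 and 53.3 and the lipase Lipe with 84.6, 79.2 and 49.4. Adipoq and Lpl are also members of the MSPC list, so each counts as open in both lists. The genes without an open start and these examples are named after their values were seen.

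The chondrocyte list was near that share, with 9 of 18 open, and 10 without replicate 3. Runx3 led it with folds of 161.2, 174.1 and 114.9. Of 16 pericyte and smooth muscle genes 12 were open, led by the receptor Notch3 with 68.7, 62.5 and 39.2. The 4 pericyte genes without were Cnn1, Rgs5, Myocd and Higd1b. Start regions of this list were often weak, with a median fold percentile of 51.4, below the 85.98 over all genes. The weakest was that of Acta2, with folds of 6.17, 6.20 and 5.14. Limb patterning and Hox factors, which keep a memory of position in mesenchymal cells, had 19 of 24 open. Meis1, a partner of Hox proteins, had folds of 111.0, 115.4 and 76.4, and Hoxc10 and Hoxa10 had median widths of 2709 and 1253 bp. Hoxd11, Hoxd13, Tbx4, Tbx5 and Tbx15 had no summit near a start, although a region covered the start of Tbx15. The median fold percentile of the start regions in this list was 53.1, below the 85.98 over all genes, so that its starts were often open and often weak.

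**Figure D2:**
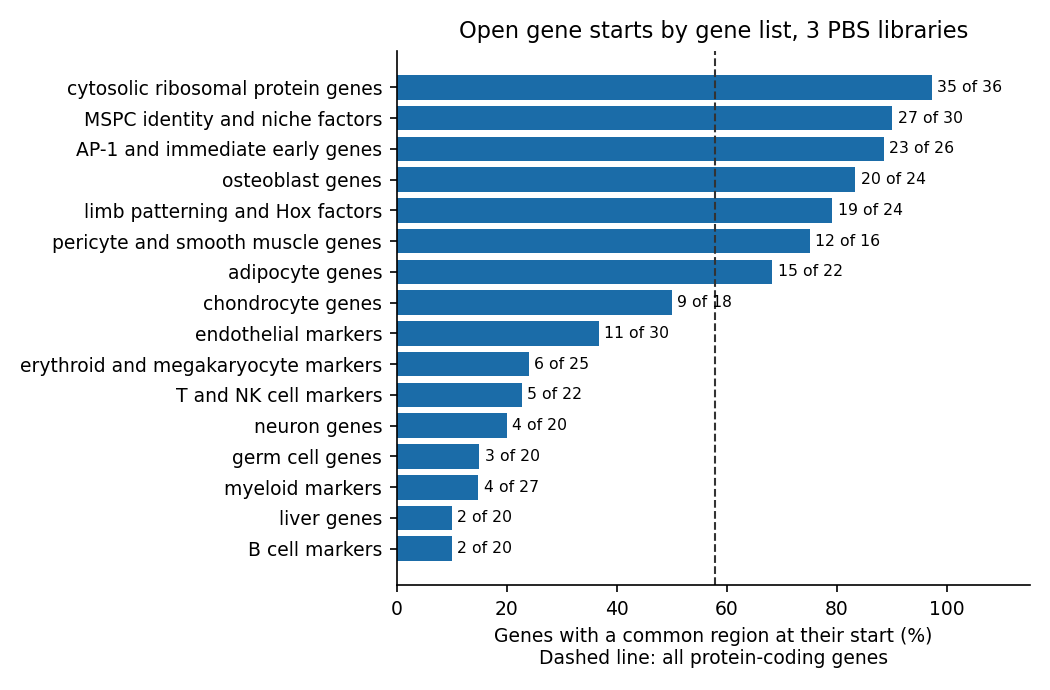
Share of the genes of each list with a common region at their start (horizontal axis, percent), with the count beside each bar; the dashed line is the share over all protein-coding genes, 57.8%. Ribosomal, MSPC, immediate early, osteoblast, limb, pericyte and adipocyte lists lie above the line, and chondrocyte, endothelial, blood, liver, germ cell and neuron lists below it.

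Strength was concentrated at gene starts. Of the common regions 12291 (21.4%) were at a gene start, 23420 (40.8%) lay elsewhere inside a gene and 21638 (37.7%) outside genes. Gene-start regions had median folds of 73.1, 74.9 and 46.9 in PBS replicates 1, 2 and 3, against 19.4, 19.6 and 12.2 in the others, a ratio of 3.81 ± 0.0369 (SD, n = 3). Their median widths of 923, 975 and 776 bp compared with 425, 463 and 309 bp, a ratio of 2.26 ± 0.218. All 3 libraries showed both differences, and the two-sided exact paired permutation test gave p = 0.25, the smallest value that 3 libraries allow. Without replicate 3 the fold ratios of the remaining libraries were 4.75 and 5.00. In 5 equal groups of regions from the weakest to the strongest, 6.63%, 7.17%, 9.16%, 22.5% and 61.7% were at a gene start, and 88 of the strongest 100 were.

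None of the 10 strongest gene-start regions belonged to a gene of the MSPC list. Hjurp, the chaperone that loads the centromeric histone CENP-A, came first at chr1:88276672-88278430 with folds of 380.6, 388.8 and 258.1. Prkaca, the catalytic subunit of protein kinase A, followed with 250.2, 260.9 and 202.9. Next came Etfdh, which passes electrons from fatty acid oxidation to the respiratory chain, with 249.3, 265.7 and 189.4. Sp1, whose protein binds the GC box, had 241.8, 270.5 and 184.2. The others of the first 10 were Traf7, Tial1, Hsd17b12, Cdca2, Sel1l and Rab40c, with folds between 229.9 and 242.3 in replicate 1. Only Hjurp stood clear of the rest in every library. Windows of 250 bases before 3 of these starts are shown, with capitals as above, because they head the ranking of gene starts.
Hjurp, chr1:88277580-88277829, minus strand: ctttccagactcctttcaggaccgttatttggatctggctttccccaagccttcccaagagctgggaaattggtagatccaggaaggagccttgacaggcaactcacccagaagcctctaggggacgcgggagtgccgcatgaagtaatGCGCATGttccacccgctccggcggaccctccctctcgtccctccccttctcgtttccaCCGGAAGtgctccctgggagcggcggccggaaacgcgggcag
Prkaca, chr8:83972728-83972977, plus strand: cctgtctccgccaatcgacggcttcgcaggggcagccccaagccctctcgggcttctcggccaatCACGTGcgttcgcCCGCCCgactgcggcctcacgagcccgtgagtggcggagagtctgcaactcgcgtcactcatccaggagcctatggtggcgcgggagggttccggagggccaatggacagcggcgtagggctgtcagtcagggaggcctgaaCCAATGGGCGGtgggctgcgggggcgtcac
Sp1, chr15:102406066-102406315, plus strand: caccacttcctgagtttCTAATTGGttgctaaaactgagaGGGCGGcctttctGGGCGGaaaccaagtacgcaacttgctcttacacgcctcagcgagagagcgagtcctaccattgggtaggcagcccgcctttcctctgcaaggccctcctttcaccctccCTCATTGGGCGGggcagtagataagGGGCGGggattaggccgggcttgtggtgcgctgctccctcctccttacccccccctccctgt
The Sp1 window held 4 GC boxes and 2 CCAAT boxes, and its summits lay at positions -233, -245 and -432 from the start. Prkaca held a CCAAT box at position -30 that overlapped a GC box. Hjurp held neither, but an NRF1 site and an ETS site.

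Motif shares were then counted in all 21045 promoter windows of 300 bp, 250 before and 50 after a start. Motifs were matched on both strands, with N for any base, and matches of different motifs could overlap. GGGCGG, the GC box of SP and KLF factors, was found in 46.7% of all windows. CCAATNNG, the motif of NF-Y that is called CCAAT box here, was found in 15.98%. The NRF1 motif GCGCATG was in 4.84%, the ETS motif CCGGAAG in 11.7%, the CRE motif TGACGTC in 3.88% and the AP-1 motif TGANTCA in 7.04%. TATAAA, the motif of TATA-binding protein, was in 12.7%, the EBF motif CCCNNGGG in 15.8%, the E-box CACGTG in 7.91% and the YY1 motif ATGGCGG in 5.29%. A common region covered the start in 11525 windows, and 8721 windows had none within 1 kb. The GC box was found in 69.6% of the covered and 17.9% of the others, the ETS site in 19.03% and 2.87%, and the EBF site in 19.1% and 11.2%. The TATA box and the AP-1 site went the other way, with 5.87% against 21.6% and 4.07% against 10.8%.

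The CCAAT box separated strong from weak covered starts more than covered starts from those with no common region within 1 kb. In 5 equal groups of covered windows, ordered by the fold of their region, its share was 12.5%, 12.4%, 14.8%, 19.7% and 36.6%. The windows with no common region within 1 kb had 12.3%, near the share in the weaker groups of covered windows. A window without a common region can still hold peaks of single libraries and is not shown to be closed. The ETS site went from 10.5% in the weakest group to 23.3% in the strongest, and the EBF site from 21.1% to 16.7%. Base composition moved with these shares. The median ratio of observed to expected CpG was 0.790 in covered windows and 0.213 in those with no region, and over the 5 groups of covered windows from weakest to strongest it was 0.652, 0.778, 0.813, 0.827 and 0.828. Windows with a ratio over 0.6 made up 57.3% of the weakest group and 88.8% of the strongest. Of windows with a ratio under 0.2, 5.50% were covered, and of those above 1.0, 93.9% were. The part of base composition in the motif shares was not tested.

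**Figure D3:**
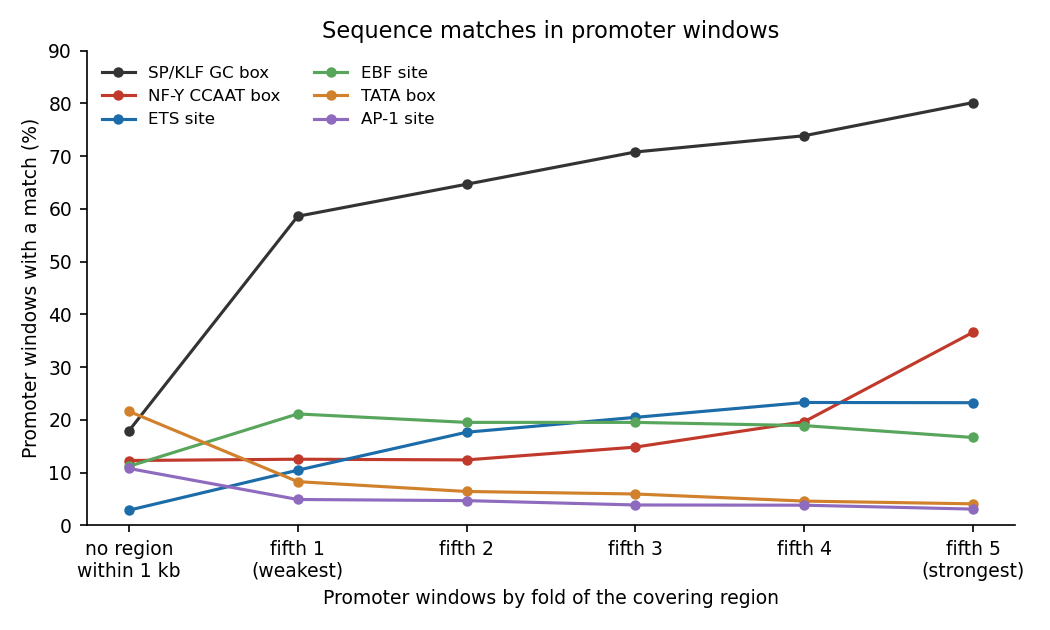
Percent of promoter windows with a match to 6 of the motifs (vertical axis), for windows with no common region within 1 kb and for covered windows in 5 equal groups by the fold of the covering region. The CCAAT box stays between 12.3% and 14.8% up to the third of the groups and reaches 36.6% in the strongest, while the GC box is higher in every successive group.

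Width picked out other genes than strength. Of the common regions 8769 were at least 1 kb wide by the median of the libraries, 253 at least 3 kb and 10 at least 10 kb. The second widest was a stretch of 34768, 35454 and 34419 bp at chr8:70698103-70733607 over Jund, Iqcn, Gm3336 and Pde4c. It began inside Jund, a subunit of the AP-1 transcription factor, just past that gene's start. The third, of 19954, 20060 and 19491 bp at chr7:19290595-19310737, covered Rtn2 and Fosb, another AP-1 subunit. Brd2, a reader of acetylated histones, ranked 4 with 14673, 16745 and 15205 bp. Fos ranked 7 with 12063, 13025 and 13028 bp. Egr1, an immediate early zinc finger factor, ranked 8 with 12007, 12911 and 12021 bp. The long noncoding RNA Neat1, the scaffold of nuclear paraspeckles, held 2 of the 10, with median widths of 15156 and 11242 bp. All were far wider in every library than the median common region, which measured 491, 531 and 363 bp.

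One of the 10 widest regions, chr8:84205176-84220983 with 15134, 15399 and 11406 bp, held the microRNA cluster of Mir23a, Mir27a and Mir24-2. It also held Mir3074-2, on the opposite strand, and overlapped the protein-coding gene Zswim4. Its fold percentile was only 63.7. The mature sequences of the 3p arms of Mir23a, Mir27a and Mir24-2 are given, since this cluster lies inside the region. They are from RefSeq, with the seed (bases 2 to 8) in capitals.
miR-23a-3p: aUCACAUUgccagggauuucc
miR-27a-3p: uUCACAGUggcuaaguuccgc
miR-24-3p: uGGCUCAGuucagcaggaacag
The 3 seeds differ from each other. The data are of chromatin and hold no measure of the microRNAs themselves.

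As a list, AP-1 and immediate early genes, which cells induce within minutes of a stimulus, had the widest start regions of the lists examined. Of the 26 genes 25 had a start covered by a common region, with median widths of 3561, 3992 and 2893 bp in PBS replicates 1, 2 and 3. Over all genes with a start region these medians were 979, 1034 and 833 bp. A start region of at least 3 kb was found for 15 of the 25, and for 191 of 12594 genes overall (1.52%). Jun had 8190, 9337 and 8353 bp, Dusp1, a phosphatase that ends MAP kinase signals, 9782, 9697 and 9025 bp, and Junb 6883, 7362 and 7074 bp. Myc had 4300, 4222 and 4252 bp. At the other end Fosl1 had 554, 843 and 485 bp and Egr3 had 950, 975 and 934 bp. All 3 libraries had been digested and sorted alike, and no sample without these steps was analysed here.

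The summit rule undercounted this list, because in a very wide region the summit can lie far from the start. By that rule 23 of 26 were open, without Fos, Jund and Zfp36, and 20 without replicate 3, while a common region covered the start of 25 of them and of 55.1% of all genes. The list was also strong, with a median fold percentile of 93.3, the highest of the lists examined, beside 85.98 over all genes. Strength did not set it apart from the 36 cytosolic ribosomal protein genes, which every cell transcribes and whose median was 92.4. The ribosomal starts were as narrow as those of genes in general, with a median of 922 bp beside 961 bp, and 35 of 36 were open. Rpl37 was the strongest of them with folds of 207.0, 192.7 and 125.8, and the start of Card6 lay in the same region. Rpl7, the exception by the summit rule, had its start covered.

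**Figure D4:**
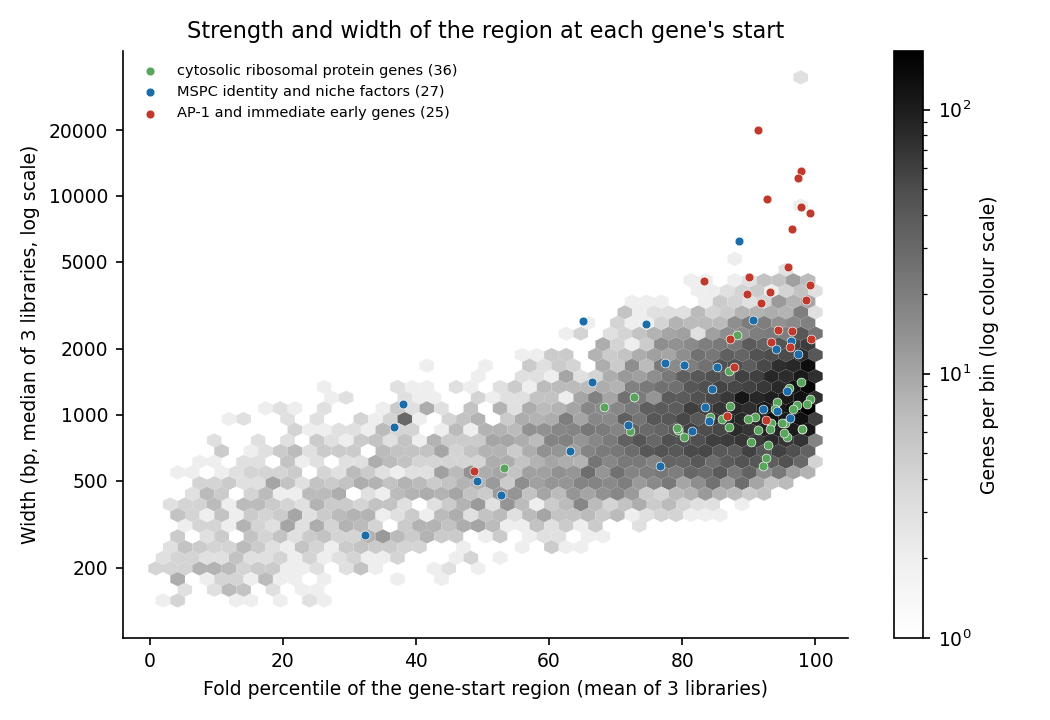
Width of the region at each gene's start (vertical log axis, bp, median of the 3 libraries) against its fold percentile (horizontal axis), with all genes as grey bins and 3 lists as points. Immediate early genes (red) reach 19954 bp at fold percentiles where ribosomal protein genes (green) stay at or under 2311 bp.

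Immediate early promoters are shown for Jun and Dusp1, with capitals as above.
Jun, chr4:95052223-95052472, minus strand: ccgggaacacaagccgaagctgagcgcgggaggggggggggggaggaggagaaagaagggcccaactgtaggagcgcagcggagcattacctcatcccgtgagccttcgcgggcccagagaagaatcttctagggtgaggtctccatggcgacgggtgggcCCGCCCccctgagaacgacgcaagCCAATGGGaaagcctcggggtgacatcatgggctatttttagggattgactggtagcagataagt
Dusp1, chr17:26508473-26508722, minus strand: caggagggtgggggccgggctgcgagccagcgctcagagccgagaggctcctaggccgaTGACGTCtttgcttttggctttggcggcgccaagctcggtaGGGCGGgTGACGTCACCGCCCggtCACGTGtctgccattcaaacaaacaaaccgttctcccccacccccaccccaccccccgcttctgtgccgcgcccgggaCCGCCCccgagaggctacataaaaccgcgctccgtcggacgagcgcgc
The Dusp1 window held 7 matches, which included 3 to the CRE, the site of the cAMP-responsive factor CREB, 2 of these overlapping on opposite strands. The Jun window held a GC box and a CCAAT box. Over the 196 windows under a region of at least 3 kb, the share with an ETS site was 7.65%, against 19.03% of all covered windows. The EBF site was found in 26.0% against 19.1% and the TATA box in 10.7% against 5.87%.

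**Figure D5:**
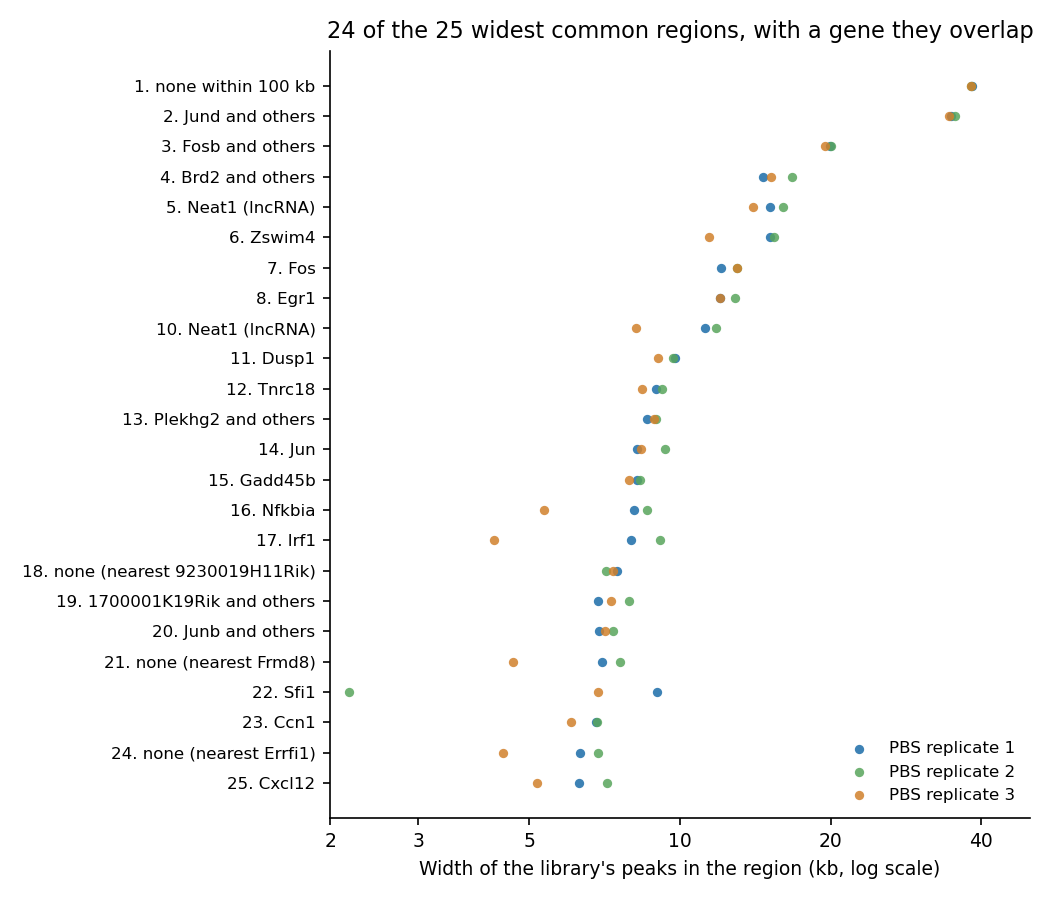
Width (log axis, kb) of 24 of the 25 widest common regions in each PBS library (the region at rank 9 is not shown), ordered by the median of the libraries and labelled with a gene they overlap. Region 1 has nearly the same width in each library, while region 22 at Sfi1 measured 9008, 2186 and 6847 bp, and Cxcl12 is at rank 25.

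Density of regions gave a different order again. Most genes had few regions, with a median of 1 and 7145 genes with 0, and 1113 genes (5.15%) had 10 or more. Rad51b, a DNA repair gene of 550979 bp, had the most with 66, followed by Tns3, a focal adhesion protein, with 55, and the forkhead factor Foxp1 with 53. Arhgap26 had 52, Wwox 51, Pakap 50, Thsd4 49 and Rgs3 47. Ebf1, Ebf3 and Runx1 tied at 45. Long genes collect more regions, and the rank correlation of regions with gene span was 0.483 over 21631 genes, given as a description. In the MSPC list 16 of 30 genes had 10 or more regions, beside 5.15% of all genes. So did 8 of 24 osteoblast, 6 of 24 limb and Hox, 6 of 26 immediate early and 5 of 22 adipocyte genes. The chondrocyte, pericyte, endothelial, germ cell and T and NK cell lists had 1 or 2 such genes each, and the remaining lists had none. Without replicate 3, 1795 genes had 10 or more, and Rad51b still came first with 84.

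Per length, the order changed again. Among genes of at least 10 kb, Shox2, a homeobox factor of the proximal limb, had the most regions inside its span at 5.97 per 10 kb, with 6 regions. Ppp1r18, Exoc3l4, Ajuba and Polg2 followed at 5.00, 4.91, 4.91 and 4.41, and then Milr1, Twf2, Errfi1, Dusp5 and Rgcc at 4.41 to 3.88. None held more than 8 regions. Ebf3 was the exception in size, with 41 regions over 129135 bp at 3.17 per 10 kb, and Cxcl12 had 3.12. The densest window of 100 kb in the genome, chr7:137200001-137300000, lay inside Ebf3 and held 32 regions, none of them at a gene start. The next were chr16:92600001-92700000 over Runx1, the blood and mesenchymal runt factor, with 26, and chr17:29000001-29100000 over Cdkn1a, Srsf3 and Stk38 with 25. The median over 14284 windows with a region was 3. Most regions in Ebf3 were weak: 2 of its 45 were among the strongest 20% of all common regions.

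The strongest regions of all were not at genes. Of the first 10 by fold percentile, 8 had no protein-coding gene at their summit. The first, chr2:98666240-98667343, had folds of 5743.9, 2860.3 and 4017.5. The third, chr17:39842994-39848857, overlapped Rn18s-rs5, a ribosomal RNA pseudogene. The widest common region, chr9:3000003-3038269, was the sixth strongest. The borders of the first 6 were nearly the same in every library, with widths that differed by 0 to 52 bp, while the widths of Hjurp differed by 612 bp and those of Prkaca by 708 bp. PBS replicate 2 had the lowest fold in 4 of these 6, whereas PBS replicate 3 had it in each of the 10 strongest gene-start regions. No list of repeats or high-signal regions was used here, and the cause of these signals was not tested.

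Summits of a common region can differ only as far as overlapping peaks allow, and at gene starts they lie near the start by definition, so their positions are given as a description. In the 51759 regions with 1 peak in each library, the summits of the 3 libraries spanned a median of 37 bp, and 62.5% spanned at most 50 bp. The span was 60 bp in the weakest of 5 equal groups and 16 bp in the strongest, and 24 bp at gene starts against 40 bp elsewhere. At gene starts the median position of the summit was -38, -38 and -36 bp from the annotated start, and 71.3%, 70.6% and 69.4% of summits lay upstream. Away from starts, the median distance to the nearest gene start was 30.3 kb, and 20.5% of those regions were more than 100 kb away.

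The X chromosome, 1 copy of which is silenced in each cell of a female, differed from the autosomes. On X 40.3% of genes had an open start, against 58.6% on autosomes, where single chromosomes ranged from 46.6% to 66.2%. Median folds of gene-start regions on X were 46.3, 49.1 and 30.5, below the autosomal 74.4, 76.3 and 47.5 in every library. The ratio was 0.636 ± 0.0125 (SD, n = 3), with a two-sided exact paired permutation p of 0.25, the smallest possible. Away from gene starts the ratio was 0.830 ± 0.0120. In the 2 libraries other than replicate 3, with their own common regions, the ratio at starts was 0.637 and 0.642. No autosome had a median as low as X in any library: the lowest were 69.6, 71.1 and 44.9. The part of X silencing in this difference was not tested.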

How the data were processed

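The authors deposited a peak list for each library, with mm10 coordinates per the submitters' processing notes, which name MACS2 2.2.7.1, Bowtie2 2.4.5, Trim Galore 0.6.6 and Picard 2.10.9 among other tools, with no role or order. Settings, read filters, the Tn5 shift and read totals are not stated in the sources used here, so depth is described by peaks per library. Each deposited peak has a fold enrichment (a ratio), a −log10 p, a −log10 q, a score that was 10 times the −log10 q in 99.9% of peaks, and a summit offset. All come from the authors' peak lists and were ranked only within a library.

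Peaks were merged, ranked and annotated in Python 3.11.15 with pandas 2.3.3, after the code was tested on simulated intervals. Between 17 and 19 peaks per library on chromosome Y were left out. Gene spans and promoter windows came from RefSeq tables of GRCm38.p6. The promoter table covers 17274 of 21631 protein-coding genes. For the other 4357 genes, either end of the span counted as a start, so that some of their starts are far ends of genes; 2452 of them were open. All 376 list symbols matched, and Adipoq, Lpl, Cspg4 and Prrx1 each stand in the MSPC list and in another list. The genes and regions named are the 5 markers, the first 10 of each ranking, and in each list the 4 strongest starts and the members without one where these are 5 or fewer; others are named after their values were seen, and a few items that the rule names are not reported here. The members, lists and tests were chosen with earlier results of these data known. Alternatives tried were equal list lengths, merging distance, required coverage, a q threshold, the start window, ranking measures, assignment reach and leaving out each library.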

Additional observations from a re-analysis of the deposited data

How the results depend on the processing

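No paired analysis was possible between groups of samples because only the PBS group was described; the paired tests in the report compare classes of regions within each library. The share of common regions at a gene start was 21.4%. It was 22.9% with lists of equal length, 21.5% with peaks within 150 bp merged, 24.5% where a library counted only if its peaks covered at least 50% of the region, 22.5% with a −log10 q of at least 5, and 19.3% with a window of 500 bp. Leaving out a library gave 17.4% to 21.2%, lowest without replicate 3. Each of these differed from the main share by more than 0.0185 percentage points, the SD when the summits of each library were used in turn. That SD was taken over the same common regions, so it is small by design and does not measure how the share varies between libraries. Genes with 10 or more regions numbered 727 under the coverage requirement, against 1113, and 1169 to 1795 with a library left out, highest without replicate 3. The cause of these shifts was not tested beyond the fewer or more regions each setting admits. Common regions ranged from 45902 under the coverage requirement to 75945 without replicate 3, and genes with an open start from 11653 to 12891. Counting a start as open when a region covers it, an alternative chosen after seeing the data, gave 11920 genes and 26 MSPC members. Of the 10 strongest regions 9 or 10 were kept under each alternative, of the 10 widest 7 to 10, and of the 10 genes with most regions 8 or 9. Where a library had no peak, its signal was under that library's limit, which does not show closed chromatin.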
